A study of Caenorhabditis elegans with 12 samples.

Results

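The genes described here were those whose mRNA was more abundant in affl-2 mutants than in wild-type Caenorhabditis elegans both at 20 °C and after heat shock. They were chosen by the measured difference itself. The level was taken as CPM, a gene's estimated counts as parts per 1000000 counts of its library. A gene entered when its mean CPM was at least 3 in both mutant groups and when log2(mean CPM + 0.5) was at least 1 higher in the mutant than in the wild type at both temperatures. Genes of 20 large families, collagens, C-type lectins, nuclear hormone receptors and F-box genes among them, were left out by their symbols. The rule found 133 genes of 22010 in the deposited tables, or 1.22% of the 10874 genes that had the minimum level in the mutant and belonged to no family left out. These 10874 are called eligible genes below. Another 27 genes met both thresholds but belonged to the families left out. The mirrored rule, for genes low in the mutant, found 129 of 10472 genes with the minimum level in the wild type, or 1.23%.

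RNA came from whole animals at the L4 larval stage, 3 libraries in each of 4 groups. The groups were strain N2, the wild type, and strain PS8060, which carries affl-2(sy975), each kept for 30 min at 20 °C or at 33 °C in a water bath. For every condition of a replicate, 250 L4 animals fed OP50 bacteria had been picked to a plate that was covered with parafilm. All mutant libraries came from 1 strain with 1 allele, whose lesion is not given in the sources used here. Below, unheated and heated stand for 20 °C and 33 °C, and affl-2 stands for the mutant strain unless the gene is named.

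affl-2 encodes a nematode relative of the AF4/FMR2 proteins. In mammals these proteins are scaffolds of the super elongation complex, which brings the kinase P-TEFb to paused RNA polymerase II and releases it into productive elongation. In C. elegans affl-2 is known as a gene needed for the transcriptional heat shock response, so most descriptions of its mutants concern genes that fail to rise. The 133 genes described here are those on the other side, with more mRNA when affl-2 is mutated.

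The libraries held 17.97 to 22.66 M estimated counts each. affl-2 mRNA was still present in the mutant, at 17.4, 17.8 and 21.2 CPM unheated and 19.4, 17.04 and 17.4 CPM heated. N2 libraries held 21.9, 25.1 and 20.7 CPM unheated and 22.1, 22.95 and 25.4 CPM heated. On this scale of library totals the groups overlapped at 20 °C and did not at 33 °C. Over the 133 genes 2 mutant libraries stood low among their replicates and 2 stood high. Heated affl-2 replicate 2 had the lowest of the 3 levels for 110 genes, or 82.7%, against 35.5% of all expressed genes. Unheated affl-2 replicate 3 was lowest for 101 genes, or 75.9%, against 42.7%. Without heated affl-2 replicate 2 the rule found 155 genes, 131 of them among the 133, and without unheated affl-2 replicate 3 it found 142, 132 of them among the 133. The choice of scale mattered as well. With CPM by library total the median gene tested was 0.18 higher in the mutant at 20 °C and 0.26 higher at 33 °C on the log2 scale. With TMM scaling, which sets the bulk of genes equal, these medians were −0.0021 and 0.04. Under TMM scaling 66 of the 133 genes met the rule, and no further gene did.

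Among the 133 genes the mutant exceeded N2 by a median of 1.32 on the log2 scale at 20 °C, with a range of 1.00 to 5.63. At 33 °C the median was 1.25 and the range 1.01 to 5.72. Eligible genes had medians of 0.16 and 0.23. Most of the chosen genes lay close to the threshold. The smaller of the 2 differences was at least 2 in 6 genes, at least 1.5 in 20 and below 1.2 in 72. The 4 genes just inside were C18D4.6 at 1.00, twk-34 at 1.00, dct-17 at 1.01 and T21D12.12 at 1.01. The 4 just outside were R10E8.6 at 0.999, ZK1240.3 at 0.992, Y25C1A.7 at 0.991 and ncx-6 at 0.987. These differences chose the genes, so they are given as a description with no test.

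**Figure D1:**
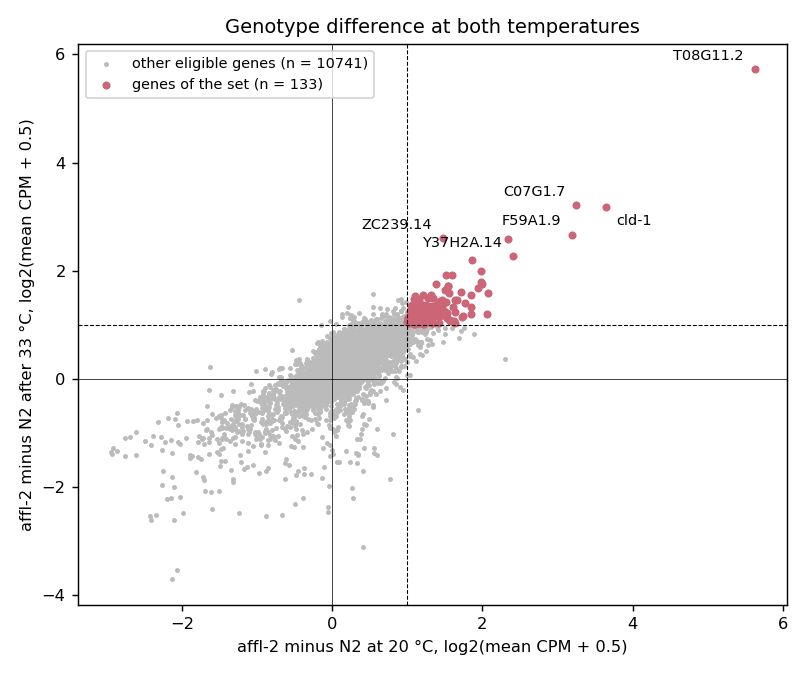
Difference between affl-2 and N2 at 20 °C (horizontal axis) and after 33 °C (vertical axis), both in log2(mean CPM + 0.5), for the 133 genes (red) and the other 10741 eligible genes (grey), with dashed lines at the threshold of 1. T08G11.2 lies farthest from the rest, at 5.63 and 5.72, and most red points lie just past the 2 lines.

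The separation between libraries followed from the rule and is likewise a description. At 20 °C all 3 mutant libraries lay above all 3 N2 libraries in 131 of the 133 genes, against 32.5% of eligible genes. At 33 °C they did so in 131 genes, against 46.8%, and at both temperatures in 130 genes, against 25.8%. The exceptions were amt-1 at both temperatures, swt-6 at 20 °C and R04A9.9 at 33 °C. The edgeR fit called 6.69% of all 15386 genes tested higher in the mutant and 7.29% lower at 20 °C, at an adjusted p under 0.05. At 33 °C it called 10.1% higher and 9.57% lower. Calls of the 133 genes in these contrasts follow largely from the rule and are not counted here. Whole-animal RNA does not tell apart more cells of a type from more RNA in each cell. With the replicate number as a block, with the numbers paired as in the methods, 1670 genes in place of 1029 were called higher at 20 °C and 2665 in place of 1561 at 33 °C.

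The genes were low in the wild type. This follows in part from the rule, which asked for a lower level in N2 than in the mutant, and is a description. Per length, the median of the authors' deposited TPM values over the 133 genes was 7.73 in unheated N2, against 22.7 over eligible genes, and 5.44 against 21.2 in heated N2. In the unheated mutant the medians were 22.7 and 26.4 TPM, and in the heated mutant 15.4 and 24.1 TPM. In unheated N2, 62 of the 133 genes stood below 5 CPM. Summed over the 133 genes, the level was 1573 to 1761 CPM in unheated N2 libraries and 3790 to 4611 CPM in unheated affl-2 libraries. After heat shock the sums were 1123 to 1270 CPM and 2533 to 3392 CPM. 132 of the genes were annotated as protein coding and 1, F59A1.9, as a pseudogene. 83 had no gene symbol beyond the sequence name, or 62.4%, against 43.1% of eligible genes. The 50 with a symbol were sorted by what they encode after their values had been seen, into 7 groups that hold 43 genes, and 7 symbols stayed outside.

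The widest differences belonged to genes that were nearly silent in N2. T08G11.2 (chromosome I, 8919329 to 8920504, WBcel235) had levels of 0.0441, 0 and 0 CPM in the 3 unheated N2 libraries and 0, 0 and 0.0482 CPM in the heated ones. The mutant libraries held 25.9, 27.3 and 21.5 CPM unheated and 29.8, 27.5 and 22.9 CPM heated. This is 1 count in all N2 libraries together at each temperature, against 1383 in the mutant at 20 °C and 1678 at 33 °C. The ratio of levels was 1603 at 20 °C, with an exact 95% interval of 287 to 63368, and 1601 at 33 °C, with an interval of 287 to 63279. These intervals pool the libraries of a group and cover counting error only. The rule chose the gene by this same difference, so the ratios and intervals are a description and no test. All 6 mutant libraries expressed T08G11.2 at between 21.5 and 29.8 CPM. Its change with heat, averaged over the genotypes, was 0.23 ± 0.74 on the log2 scale and was not called (adjusted p = 0.856, edgeR).

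C07G1.7 (chromosome IV, 8210906 to 8211847) ranged from 0.0441 to 0.283 CPM over the 6 N2 libraries. In the mutant it stood at 4.56, 10.2 and 3.48 CPM unheated and 6.48, 4.1 and 4.63 CPM heated, so its replicates at 20 °C varied by more than its groups at the 2 temperatures. For cld-1 (chromosome IV, 12935011 to 12936271) the unheated N2 libraries held 0, 0 and 2.84 CPM and the heated N2 libraries 0, 0.738 and 1.02 CPM. Its mutant levels were 20.2, 17.3 and 15.3 CPM unheated and 11.24, 3.86 and 12.9 CPM heated. Only 1 unheated N2 library had any cld-1 counts, and heated affl-2 replicate 2 came closest to N2.

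F59A1.9, the pseudogene (chromosome V, 17653482 to 17655281), had 0.662, 0.566 and 0.194 CPM in the N2 libraries at 20 °C and 0.838, 1.13 and 1.16 CPM in those at 33 °C. The mutant had 9.79, 9.42 and 5.96 CPM unheated and 8.59, 13.3 and 5.99 CPM heated. Y37H2A.14 (chromosome V, 18143745 to 18144720) was higher in the wild type to begin with, at 5.34, 4.9 and 7.91 CPM unheated, and reached 27.3, 50.5 and 25.4 CPM in the unheated mutant. After heat shock it stood at 2.47, 1.61 and 2.41 CPM in N2 and 15.3, 7.79 and 14.1 CPM in affl-2, below the unheated libraries of each strain. The genotype difference was 2.41 without heat shock and 2.28 after it. For ZC239.22 it was 2.34 and 2.58. K03B8.8 differed by 1.99 and 1.997, Y54G2A.36 by 1.86 and 2.20, and Y105C5A.8 by 1.99 and 1.797.

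**Figure D2:**
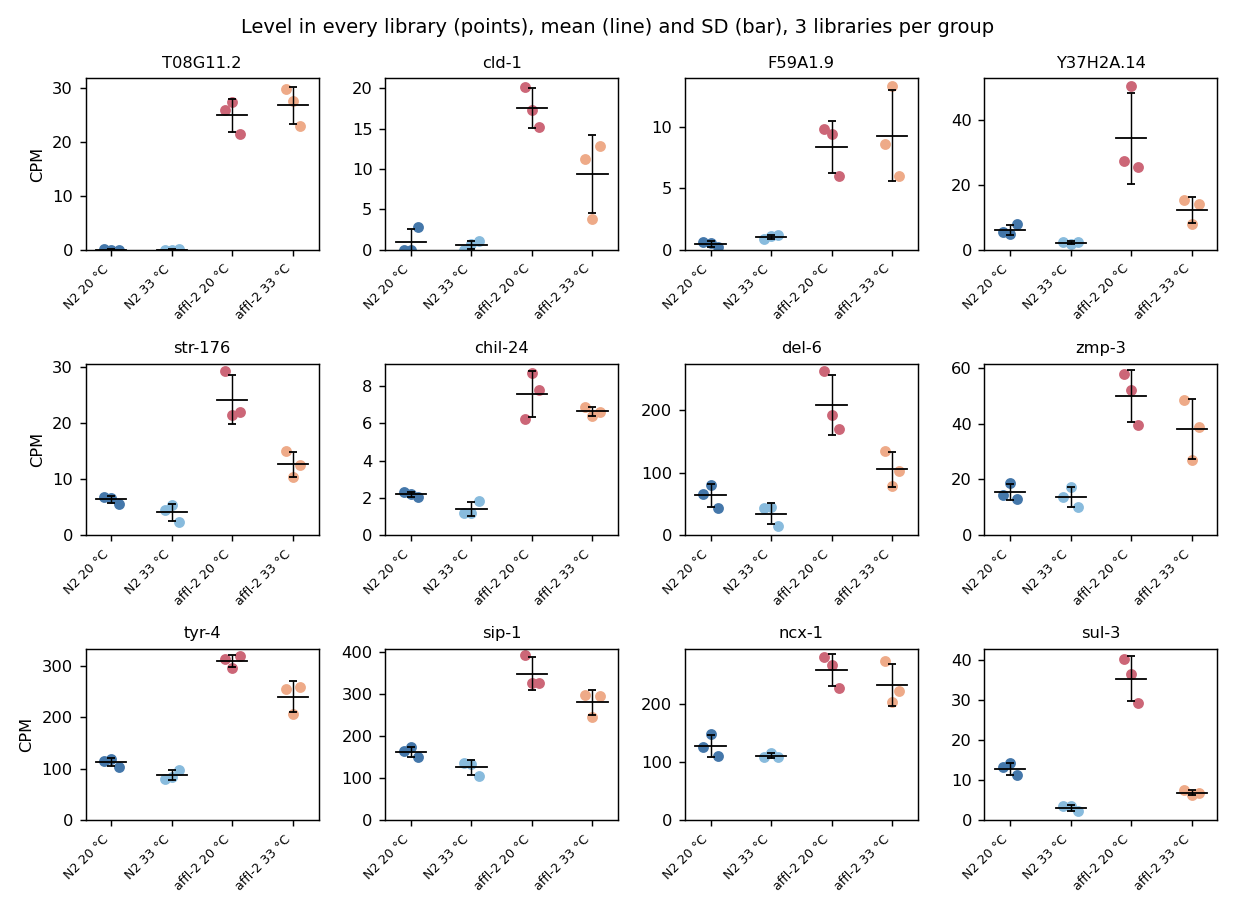
Level in CPM of 12 of the 133 genes in every library (points), with the mean (line) and SD (bar) of the 3 libraries of each group. T08G11.2, cld-1 and F59A1.9 sit near 0 in N2, while tyr-4, sip-1 and ncx-1 are well expressed in both strains and sul-3 is lower after heat in both.

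Channels, transporters and receptors made up 9 of the genes. Their median difference was 1.44 at 20 °C and 1.13 at 33 °C. del-6, a channel subunit of the degenerin family, had the largest of the smaller differences, 1.61. Its levels were 65.8, 80.7 and 43.9 CPM in unheated N2 libraries and 263, 193 and 171 CPM in unheated affl-2, and 42.7, 44.8 and 14.9 CPM and 134, 78.3 and 103 CPM after heat. Its groups did not overlap at either temperature, although heated N2 replicate 3 lay well below its replicates. str-176, a putative chemoreceptor of the str class, had 6.31 ± 0.643 CPM in N2 against 24.1 ± 4.41 CPM in affl-2 at 20 °C (mean ± SD, n = 3, as for all such pairs of values below) and 3.99 ± 1.53 against 12.6 ± 2.26 CPM at 33 °C.

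acd-2, another degenerin-type channel, had 3.24 ± 0.586 CPM in unheated N2 and 11 ± 1.6 CPM in unheated affl-2. The tandem-pore potassium channels twk-33 and twk-34 differed by 1.44 and 1.004 at 20 °C and by 1.15 and 1.13 at 33 °C. Of 44 twk genes in the tables these were the only members. Of the other 38 tested, 5 were called higher in the mutant at 20 °C and 6 at 33 °C, with none called lower (edgeR). nhx-1, a sodium/proton exchanger, had 5.78, 6.32 and 5.05 CPM in unheated N2 libraries and 17.9, 17.8 and 15 CPM in unheated affl-2, with no overlap.

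ncx-1, a plasma membrane sodium/calcium exchanger, had 128 ± 19 CPM in unheated N2 and 259.5 ± 27.4 CPM in unheated affl-2. It lay near the threshold, with differences of 1.01 and 1.07, and dropped out in 5 of the 12 turns that each left out 1 library. The ammonium transporter amt-1 had the widest spread, with 24.6, 17.3 and 7.04 CPM in unheated N2 libraries and 54.2, 39.9 and 21.5 CPM in unheated affl-2. Its groups overlapped at both temperatures. The SWEET sugar transporter gene swt-6 differed by 1.22 and 1.09, and its groups overlapped at 20 °C.

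Secreted and matrix enzymes made up 10 of the genes, with median differences of 1.33 at 20 °C and 1.13 at 33 °C. chil-24, a chitinase-like gene, differed by 1.59 at 20 °C and by 1.91 at 33 °C. N2 libraries held 2.3, 2.22 and 2.04 CPM unheated and 1.18, 1.18 and 1.83 CPM heated, and affl-2 libraries 6.23, 8.72 and 7.78 CPM unheated and 6.88, 6.42 and 6.62 CPM heated. All 6 mutant values exceeded all 6 wild-type values. tyr-4, a tyrosinase, the class of copper enzyme that oxidises phenols, had 115.4, 118 and 103 CPM in the N2 libraries at 20 °C and 314, 296 and 319 CPM in the mutant ones. After heat these were 80.4, 83.5 and 97.9 CPM and 255, 206 and 259.5 CPM. The replicates of tyr-4 lay close together, and its difference was 1.46 at 20 °C and 1.46 at 33 °C.

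zmp-3 and zmp-4 encode zinc-dependent matrix metalloproteases, enzymes that cut extracellular matrix proteins. zmp-3 had 15.4 ± 2.95 CPM in unheated N2 and 49.9 ± 9.38 CPM in unheated affl-2, and zmp-4 had 30.7 ± 4.36 and 74.9 ± 7.22 CPM. The tables hold 6 zmp genes. pxn-2, a peroxidasin that acts in basement membranes, had 7.7 ± 1.72 CPM in unheated N2 and 19.7 ± 0.904 CPM in unheated affl-2. dpf-2, of the dipeptidyl peptidase family, had 41.5 ± 3.37 and 103 ± 8.85 CPM. The cathepsin B-like protease cpr-8, the serpin srp-2 (a serine protease inhibitor), the sulfatase sul-3 and the acid phosphatase pho-7 differed by 1.06, 1.37, 1.43 and 1.02 at 20 °C. At 33 °C these differences were 1.04, 1.15, 1.03 and 1.03. cpr-8 and pho-7 each dropped out in 4 of the 12 turns.

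Lipid and fatty acid genes made up 7, with median differences of 1.09 and 1.24. hacd-1, a hydroxyacyl-CoA dehydrogenase gene, and ech-7, an enoyl-CoA hydratase gene, belong to enzyme families of fatty acid beta-oxidation. For hacd-1 the N2 libraries held 50.4, 50.1 and 41.1 CPM unheated and 27.8, 24.7 and 25.6 CPM heated, and the mutant ones 103.8, 143 and 127 CPM and 79, 43.6 and 81.6 CPM. ech-7 had 52 ± 5.33 CPM in unheated N2 and 109 ± 16.3 CPM in unheated affl-2. For both, heated affl-2 replicate 2 was the lowest mutant library, and it still exceeded every heated N2 library.

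cept-1, a choline/ethanolamine phosphotransferase that makes membrane phospholipids, had 57.4 ± 6.49 CPM in unheated N2 and 118.5 ± 6.68 CPM in unheated affl-2. mboa-3, a membrane-bound O-acyltransferase, had 33.6 ± 4.21 and 71.3 ± 8.47 CPM. tmem-135, named for its resemblance to mammalian TMEM135, differed by 1.09 and 1.01 and dropped out in 4 of the 12 turns. far-3 and far-5 encode secreted fatty acid and retinol binding proteins. far-3 differed by 1.38 and 1.74, and far-5 by 1.18 and 1.24. They are neighbours on chromosome V whose annotations overlap by 49 bases on opposite strands, and the library kit keeps no strand. Of the other 5 far genes tested, 3 were called lower in the mutant at both temperatures and none higher (edgeR).

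Transthyretin-related genes are a nematode family of small secreted proteins. Outside the families left out by the rule, they were the only symbol family with at least 3 members, with 5 of 58 ttr genes in the tables. ttr-7 differed most, with 5.47, 3.16 and 4.22 CPM in unheated N2 libraries and 11.9, 14.7 and 13.7 CPM in unheated affl-2, and 3.5, 3.32 and 3.42 CPM and 14.3, 9.15 and 13.8 CPM after heat. It overlaps best-17 on the opposite strand, and the library kit keeps no strand. best-17 was also higher in the mutant, by 1.75 at 20 °C and 0.94 at 33 °C, so reads of the 2 genes may be mixed. Per length, ttr-59 had the highest level of the 5 in unheated affl-2, at 148 TPM against 63.2 TPM in unheated N2. ttr-8, ttr-30 and ttr-31 differed by 1.57, 1.11 and 1.03 at 20 °C and by 1.09, 1.11 and 1.03 at 33 °C. ttr-31 dropped out in 6 of the 12 turns, the most of any gene. Over the other 50 ttr genes tested, 3 were called higher in the mutant and 2 lower at 20 °C, and 1 higher and 7 lower at 33 °C (edgeR).

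Among 7 genes of the cytoskeleton, signalling and transcription, median differences were 1.36 and 1.08. tba-7 and tba-9 encode alpha-tubulins, and tba-7 had 10.9 ± 1.58 CPM in unheated N2 and 28.9 ± 7.48 CPM in unheated affl-2. tba-9 had 3.26 ± 0.318 and 7.17 ± 1.61 CPM. taf-11.2, a subunit gene of the general transcription factor TFIID, had 10.5, 11.1 and 7.23 CPM in unheated N2 libraries and 40.7, 25.4 and 22.6 CPM in unheated affl-2. After heat its levels were 11.6, 12.4 and 7.9 CPM and 22.6, 27.9 and 17.9 CPM, again with no overlap. tbc-19, of the family of Rab GTPase-activating proteins, clc-25, a claudin-like membrane protein, and icmt-1, an isoprenylcysteine methyltransferase, differed by 1.29, 1.64 and 1.02 at 20 °C. At 33 °C they differed by 1.04, 1.23 and 1.08.

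Among 4 genes of small molecule metabolism, gcsh-1 encodes the H protein of the mitochondrial glycine cleavage system. It had 16.37, 13.6 and 12.1 CPM in unheated N2 libraries and 29.3, 38 and 24.1 CPM in unheated affl-2, and 5.13, 4.88 and 3.95 CPM and 16.9, 9 and 15.4 CPM after heat. Its difference was 1.09 before and 1.47 after. ddo-1, a D-aspartate oxidase, differed by 1.13 and 1.08, the carboxylesterase-domain gene cest-28 by 1.25 and 1.15, and poml-2, of the paraoxonase and MEC-6-like family, by 1.19 and 1.37.

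1 chaperone gene was in the set, sip-1, which encodes a small heat shock protein. At 20 °C it had 164, 173 and 149 CPM in N2 and 393, 326 and 325 CPM in affl-2. At 33 °C it had 136, 134 and 105 CPM and 298, 246 and 296 CPM. The difference was 1.101 at 20 °C and 1.16 at 33 °C, with no overlap at either. Per length, sip-1 was at 392 TPM in unheated N2 and 875 TPM in unheated affl-2, the highest mean of the 133 in both. Its averaged change with heat was −0.18 ± 0.08 on the log2 scale and was not called (adjusted p = 0.11, edgeR).

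The 83 genes without a symbol had median differences of 1.34 at 20 °C and 1.31 at 33 °C. Per length, F08H9.2 had the highest level of these in unheated affl-2, at 399 TPM. In CPM it had 44.6 ± 6.6 CPM in unheated N2 and 98.6 ± 31.6 CPM in unheated affl-2, where unheated affl-2 replicate 3 was the lowest of its group, at 64 CPM. C26G2.2 had 33.4 ± 4.94 and 77.6 ± 9 CPM. B0454.5 had 6.09, 6.46 and 4.71 CPM in unheated N2 libraries and 26.3, 27.5 and 19.2 CPM in unheated affl-2, and 2.17, 2.09 and 1.83 CPM and 8.95, 6.47 and 8.81 CPM after heat. Next in order, ZK896.1 differed by 1.94 and 1.67, Y69A2AR.25 by 2.07 and 1.59, and B0416.7 by 1.56 and 1.59.

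The effect of heat averaged over both genotypes was not used by the rule, beyond the minimum level asked of the mutant at each temperature, and it was tested for every gene. The labels do not say whether replicates came from separate cultures, so these p-values measure only the spread between the libraries. Of the 133 genes, 51 were called lower after heat shock and 7 higher, and 75 were not called (edgeR, adjusted p under 0.05). This is 38.3% lower and 5.26% higher, against 19.1% lower and 18.1% higher of all 15386 genes tested. Eligible genes gave 17.4% lower and 19.2% higher. The median log2 change was −0.35 in the 133 genes and 0.02 in all genes tested, and 111 of the 133 values were negative. With library size alone as the scale the medians were −0.51 and −0.14. 11 genes fell by more than 2-fold and none rose by as much. The 129 genes of the mirrored rule had 22 called lower and 22 higher, with a median of 0.18.

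Lower calls also outnumbered higher ones among the genes farther from the threshold. Among the 66 genes that also met the rule under TMM scaling, 22 were lower and 3 higher, with a median of −0.34. Among the 76 that the rule kept in each of the 12 turns, 29 were lower and 5 higher. Without heated affl-2 replicate 2, the library lowest for most of the genes, 40 of the 133 were lower and 6 higher, and without unheated affl-2 replicate 3, 55 were lower and 5 higher. The 51 lower genes kept their sign and their call with library size alone. Of the 7 higher genes all kept their sign and 3 their call.

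**Figure D3:**
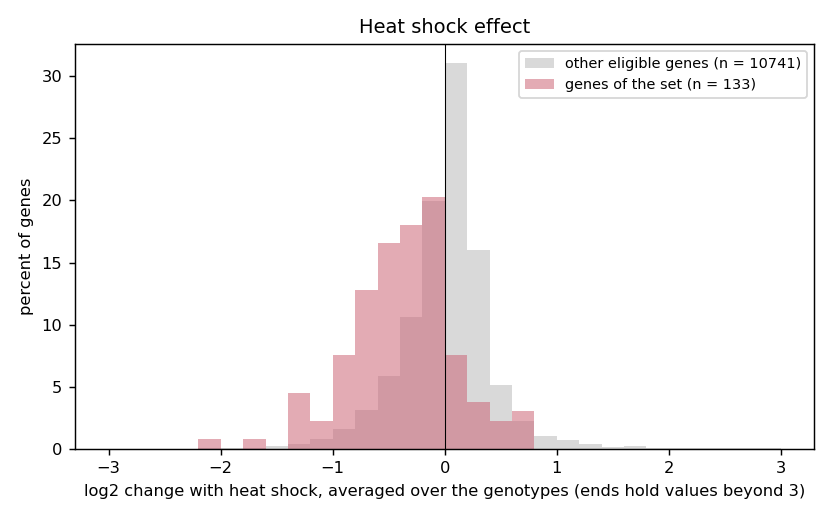
Share of genes, in percent, by log2 change with heat shock averaged over both genotypes (TMM scaling), for the 133 genes (red) and the other 10741 eligible genes (grey). The red distribution lies to the left, with a median of −0.35, and reaches −2.04 at sul-3.

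sul-3, the sulfatase gene, fell most. Its levels went from 13.2, 14.2 and 11.16 CPM to 3.6, 3.49 and 2.22 CPM in N2 and from 40.3, 36.6 and 29.2 CPM to 7.46, 6.32 and 6.77 CPM in affl-2. The averaged change was −2.04 ± 0.12 on the log2 scale (log2 change ± SE, edgeR adjusted p = 1.7e-08), and every heated library lay below every unheated library of its strain. tmem-135 went from 16.24, 14.5 and 13.9 CPM to 4.19, 4.13 and 4.43 CPM in N2 and from 29, 38.1 and 29.7 CPM to 9.53, 6.72 and 11 CPM in affl-2, a change of −1.65 ± 0.13 (edgeR adjusted p = 2.1e-07). dpf-2 went from 45.4, 39.1 and 40.2 CPM to 21.4, 21.2 and 19.8 CPM in N2 and from 108, 108 and 92.9 CPM to 49.7, 41.7 and 45.3 CPM in affl-2, a change of −0.92 ± 0.07 (edgeR adjusted p = 3.24e-07). In these 3 genes heated and unheated libraries of a strain did not overlap, and heated affl-2 libraries lay below unheated N2 for sul-3 and tmem-135.

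cept-1, the phospholipid enzyme gene, fell by a similar amount in both strains, from 64.9, 54.5 and 53 CPM to 28, 26 and 22.1 CPM in N2 and from 111, 122.5 and 122.4 CPM to 63.6, 51.2 and 67.8 CPM in affl-2. Its averaged change was −0.91 ± 0.09 (edgeR adjusted p = 4.03e-06). B0454.5 changed by −1.38 ± 0.13 (edgeR adjusted p = 2.06e-06), F11F1.1 by −1.2 ± 0.13 (7.7e-06) and gcsh-1 by −1.202 ± 0.16 (5.02e-05). nhx-1 changed by −1.04 ± 0.12 (9.39e-06), cpr-8 by −0.92 ± 0.13 (6.58e-05), T10D4.6 by −0.87 ± 0.11 (3.07e-05), Y49E10.18 by −0.83 ± 0.10 (2.51e-05) and twk-34 by −0.78 ± 0.11 (4.75e-05). These 12 genes had the smallest adjusted p-values of the 133, and each kept its direction and call in all 17 alternatives.

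By role, 6 of the 9 channels, transporters and receptors were called lower with heat and none higher, with a median of −0.60. Of the 10 secreted and matrix enzymes 4 were lower, of the 7 lipid genes 4, and of the 4 genes of small molecule metabolism 3, with no gene of these groups called higher. Of the 7 genes of the cytoskeleton, signalling and transcription 2 were lower, of the 7 symbols outside the groups 3, and of the 83 genes without a symbol 29. The share lower was 38.3% over the whole set and 19.1% over all genes tested. The groups are small and were sorted after the values were seen, so no difference between roles is read from these counts. Of the 5 ttr genes none was lower and ttr-30 was higher, with a median of −0.08. ttr-30 changed by 0.31 ± 0.09 (edgeR adjusted p = 0.0149), a call that was lost with library size alone. The other 6 higher genes had no symbol. ZC239.6 rose from 12.82, 13.5 and 14.7 CPM to 16, 16 and 18.9 CPM in N2 and from 23.6, 35.3 and 34.4 CPM to 45.7, 43.8 and 54.3 CPM in affl-2, a change of 0.64 ± 0.11 (edgeR adjusted p = 0.000546). C33D9.13 changed by 0.75 ± 0.18 (0.00455) and F59E11.7 by 0.57 ± 0.15 (0.00871). With ZC239.6 they were the 3 higher genes that kept the call in all 17 alternatives. F59A1.9 at 0.79, C36C5.12 at 0.47 and Y45F10D.6 at 0.40 lost it in at least 1.

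Taken within each strain, the change with heat had a median of −0.33 over the 133 genes in N2 and −0.32 in affl-2, against −0.01 and 0.03 over all genes tested, and both values were below 0 in 98 genes. The heat change in affl-2 minus that in N2 was constrained by the rule and was not tested here. With TMM scaling it had a median of −0.04, against 0.04 over all genes tested. It was negative in 80 genes and positive in 53, and lay beyond 0.5 in 14. Genes differed in which temperature gave the wider gap between strains. In CPM by library total, the scale of the rule, the gap was narrower after heat in 75 genes and wider in 58.

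warf-1, a GTPase gene of the ARF family, had the largest narrowing, from 2.06 to 1.203. Its unheated affl-2 libraries ran 6.38, 22.6 and 9.9 CPM, so that replicate 2 set much of that gap, and the heated ones 7.25, 3.4 and 6.39 CPM. F36G9.3 narrowed from 1.84 to 1.19, C34F11.8 from 1.63 to 1.04, R04A9.9 from 1.75 to 1.17, Y50D4B.4 from 1.73 to 1.15 and acd-2 from 1.62 to 1.08. In the other direction ZC239.14 stood out, with a gap of 1.47 at 20 °C and 2.60 at 33 °C. It went from 1.06, 1.08 and 1.55 CPM to 0.394, 0.268 and 0.674 CPM with heat in N2 and from 4.28, 5.34 and 3.27 CPM to 5.44, 3.74 and 6.52 CPM in affl-2. These levels are low, and the unheated and heated mutant libraries overlapped. txt-11 widened from 1.11 to 1.53, F47H4.2 from 1.51 to 1.92, gcsh-1 from 1.09 to 1.47, far-3 from 1.38 to 1.74 and C33D9.13 from 1.12 to 1.46.

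The genes were spread over all 6 chromosomes, in unequal shares. Chromosome V held 41 of them, or 30.8%, against 16.9% of eligible genes, and X held 27, or 20.3%, against 12.9%. Chromosome III held 10, or 7.52%, against 17.2%, and I held 13, or 9.77%, against 18.3%. The shares of II, with 22 genes and 16.54%, and of IV, with 20 genes and 15.0%, lay close to the 16.96% and 17.5% of eligible genes. affl-2 itself lies on chromosome III, at 434891 to 440142, beside affl-1 at 440226 to 444056. affl-1 was at most 0.542 CPM in N2 libraries and at most 1.57 CPM in the mutant, and was not a member.

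**Figure D4:**
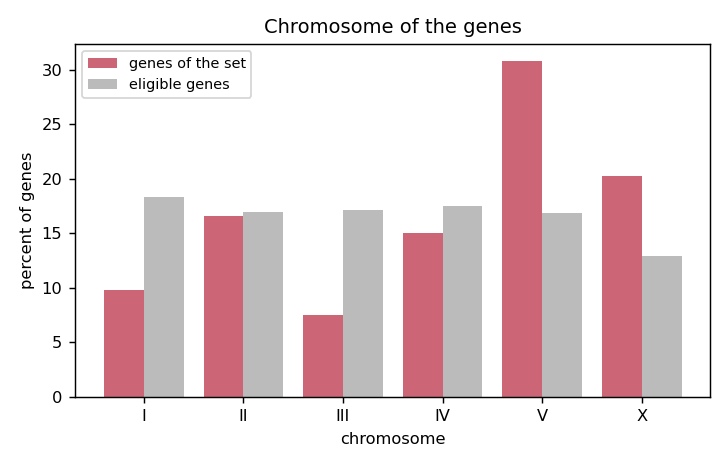
Share of the 133 genes (red) and of the 10874 eligible genes (grey) on each chromosome, in percent of genes. Chromosomes V (30.8% against 16.9%) and X (20.3% against 12.9%) held larger shares of the 133 genes, and I and III smaller ones.

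10 pairs of the genes, formed by 19 genes, lay within 20 kb of each other. In ZC239.6, ZC239.22 and ZC239.14, between 3209631 and 3222034 on chromosome II, 3 members followed each other. Not far along the same chromosome T10D4.6 and chil-24 lay 5979 bases apart. Y69A2AR.25 and Y69A2AR.12 on IV were separated by 247 bases, ttr-59 and ttr-30 on X by 280, K09H9.8 and K09H9.5 on I by 1120, and Y43F8B.14 and Y43F8B.24 on V by 1449. T10H9.8 and cest-28 on V lay 16073 bases apart. T04A11.1 and T04A11.4 on IV had the same estimated counts in the libraries within 0.5%, so their reads cannot be told apart and the pair counts as uncertain. Both had 2.05 ± 0.079 CPM in unheated N2 and 6.86 ± 1.05 CPM in unheated affl-2, and both are among the 51 genes lower with heat.

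The transcripts of the genes were short, with a median length of 1096 bases against 1427.5 in eligible genes, and 66.2% had a single annotated transcript against 55.2%. Levels were also less even between replicates, with a median within-group SD of 0.232 on the log2 scale against 0.155. 40 genes overlapped a gene on the opposite strand, and the kit keeps no strand. For 38 the partner was in the tables, and only far-3 and far-5, each the partner of the other, had a partner that also reached a difference of 1 at both temperatures. The 46 partners had median differences of 0.15 and 0.13. Many of these partners, the srg genes opposite the member amdh-1 among them, had almost no counts in any group. The constant added to each mean CPM held their differences small, so these medians do not show whether partners rose with the members.

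Across the 12 libraries, the levels of the 3 members with the most reads in the mutant ran closely with those of other genes. This is a description, since all share the same libraries. Over 11867 genes, sip-1 had its highest Pearson r of log2 CPM with nas-9 (0.990), an astacin protease gene left out of the set by its family, and with the members Y52B11A.8 (0.987) and K03B8.8 (0.986). tyr-4 ran most closely with tkt-1 (0.989), hir-1 (0.985) and the member zmp-4 (0.984). ncx-1 ran with the member Y71F9B.13 (0.988), with W04E12.7 (0.983) and with the member zmp-3 (0.981).

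None of the 133 genes belonged to the 14 lists of cell type and stage markers or the 9 pathway lists examined beside them. Some listed genes belong to the families left out by symbol, so they could not have been members. One of them, fat-7 of the intestinal list, met both thresholds, with differences of 1.43 at 20 °C and 1.55 at 33 °C. Of 40 molting and apical matrix genes tested, 6 were called lower in affl-2 and none higher at 20 °C, with a median log2 change of −1.22, and 6 lower and none higher at 33 °C, with a median of −1.03. Their summed level ran from 3576 to 6197 CPM in unheated N2, 3757 to 5824 in heated N2, 1481 to 3560 in unheated affl-2 and 2497 to 3496 in heated affl-2. Of 11 genes of adult onset and yolk, vitellogenin genes among them, 7 were lower at 20 °C and 9 at 33 °C with none higher, and the medians were −1.13 and −1.44. Their sums ran from 17324 to 19926 CPM in unheated N2, 13807 to 18169 in heated N2, 7689 to 10487 in unheated affl-2 and 4842 to 7934 in heated affl-2. All genes tested had medians of −0.0021 and 0.04, and 7.29% and 9.57% of them were called lower. These lists follow larval stage and molting cycle, and their part in the higher level of the 133 genes was not tested.

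Of 25 sperm genes tested, 2 were called higher in the mutant at 20 °C, against 6.69% of all genes. At 33 °C 10 were, against 10.1% of all genes, and none was lower at either. Their sums ran from 1789 to 2151 CPM in unheated N2, 1650 to 1782 in heated N2, 2209 to 2821 in unheated affl-2 and 2395 to 3022 in heated affl-2. Of all genes tested 7.29% were called lower at 20 °C and 9.57% at 33 °C. Of 20 germline genes 7 were lower at 20 °C and 8 at 33 °C. Of 22 intestinal genes 8 were lower and 1 higher at 20 °C, and 8 lower and 2 higher at 33 °C. Of 26 neuronal genes 2 were higher at 33 °C. Of 18 heat-induced chaperone genes 1 was higher and 1 lower in the mutant at 20 °C, and 13 were lower at 33 °C. In the other 8 marker lists at most 1 gene was called higher and 2 lower at 20 °C, and at most 4 higher and 4 lower at 33 °C. The part of these lists in the result was not tested either. Within the unheated mutant, replicate 3, the library lowest for most of the 133 genes, had the highest molting sum, 3560 CPM against 1870 and 1481 in the other two. Within the heated mutant, replicate 2, again lowest for most of them, had the middle molting sum, 2943 CPM against 2497 and 3496. These 2 libraries had the lowest adult and yolk sums of their groups, 7689 and 4842 CPM. In N2, replicate 3 was most often lowest for the 133 genes and had the lowest adult and yolk sum, 17324 CPM unheated and 13807 heated. Sperm sums were lowest in the same 2 mutant libraries, 2209 and 2395 CPM, but highest in N2 replicate 3, 2151 and 1782 CPM. None of these patterns was tested.

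**Figure D5:**
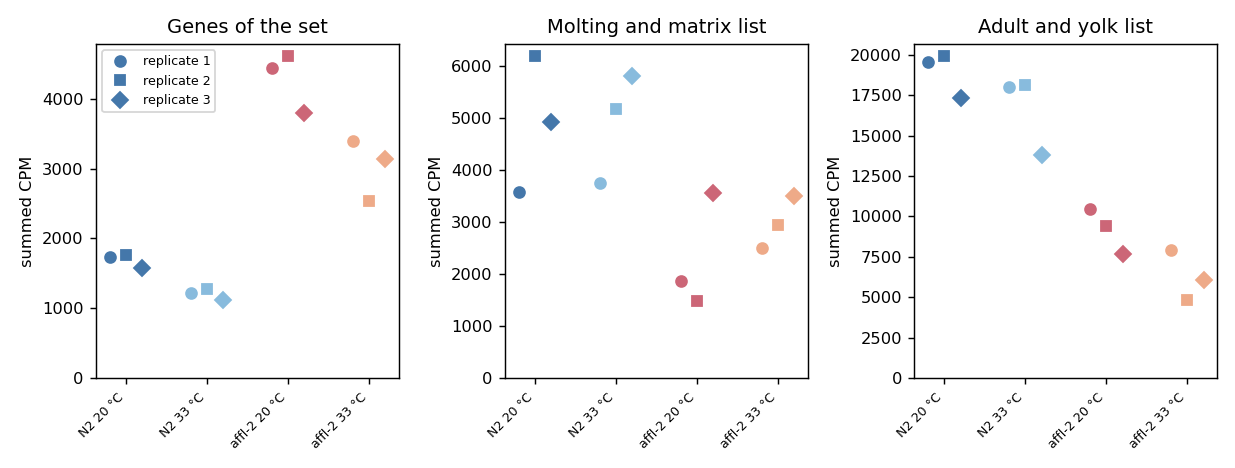
Summed level in CPM per library of the 133 genes (left), of the molting and matrix list (middle) and of the adult and yolk list (right), with each replicate as its own symbol. The 133 genes sum to 1123 to 1761 CPM in N2 and 2533 to 4611 CPM in affl-2, and the adult and yolk list is lower in every affl-2 library than in every N2 library.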

How the data were processed

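Each of the 12 libraries was poly(A) RNA of whole L4 animals, sequenced as single 50 nt reads. The deposited tables give estimated counts, TPM and effective lengths for 35862 transcripts, made by the authors with kallisto against WBcel235 from bcl2fastq 1.8.4 output, per the submitters' processing notes. No kallisto version is given there. The library kit keeps no strand, and kallisto divides reads shared by near-identical genes between them. The deposited TPM values were used only for levels between genes and for 1 alternative form of the rule.

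Here the authors' estimated counts were summed to 22010 genes by sequence name, 21842 of them in the Ensembl release 115 annotation, and divided by the library total for CPM. For the tests they were rounded to whole numbers, and genes were kept with filterByExpr (minimum count 10), which kept 15386 and set 6624 aside. Then edgeR 4.0.16 (R 4.3.3) fitted the 4 group means over all 12 libraries with TMM scaling, a robust quasi-likelihood fit with 8 residual degrees of freedom and a common biological coefficient of variation of 0.147. p-values were adjusted by Benjamini-Hochberg over all genes tested, and a gene was called at 0.05. Errors of CPM are SDs of 3 libraries and errors of log2 changes are standard errors. Both genotype contrasts chose the genes, so their calls are given only for genes outside the set and over all genes. The fit was tested on simulated data.

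The genes, the marker and pathway lists and the alternatives were chosen with earlier results of these data known, and the role groups after their values were seen. The genes named were the 15 with the largest smaller difference, the 12 with the highest mutant CPM, the 12 with the smallest adjusted p for heat, members of families and neighbouring runs, genes near the threshold, those most often lost when a library was left out, those with the widest gap between temperatures, affl-2, affl-1 and the genes most like the 3 with the highest CPM. The other members named were chosen by role after their values were seen.

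The replicate numbers in the titles did not pair the samples in every group, with a correlation of deviations as low as −0.316. Descriptions and file names give unheated affl-2 replicates 1 and 2 each other's library number. With these 2 exchanged, all same-numbered pairs correlated at 0.107 to 0.325, and this pairing was used for the replicate block.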

Additional observations from a re-analysis of the deposited data

Results flagged for a closer look

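Y50D4B.4 moved in opposite directions with heat in the 2 strains, in every library. It went from 34.4, 37.3 and 35.7 CPM to 38.9, 44.4 and 37.9 CPM in N2, where all 3 heated libraries lay above all 3 unheated ones. In affl-2 it went from 129, 118 and 112 CPM to 103, 81.7 and 86.2 CPM, where all 3 heated libraries lay below all unheated ones. The heat change in affl-2 minus that in N2 was −0.62 on the log2 scale. This difference was not tested, because the rule that chose the gene used the same group means. Even heated, every affl-2 library stood above every N2 library.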

How the results depend on the processing

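The rule found 133 genes, and 106 (without heated affl-2 replicate 1) to 155 (without heated affl-2 replicate 2) when each library was left out in turn. It found 68 with a minimum of 10 CPM, 66 with TMM scaling, 162 with a minimum of 1 CPM and 156 with TPM. Calls of the 133 genes with heat ran from 40 to 55 lower and 5 to 8 higher without 1 library. With library size alone 70 were lower and 3 higher. 2 alternatives added after the data were seen kept only the genes that met the rule with TMM scaling, of which 22 were lower and 3 higher, or only those kept in each of the 12 turns, of which 29 were lower. With the replicate block, 59 were lower and 9 higher by the numbers in the titles, and 64 and 8 with the exchanged pairing. DESeq2 1.42.0 gave 56 and 9. Of the 51 lower genes 39 kept their call in all 17 alternatives, and of the 7 higher ones 3 did.

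Over all genes, heat calls went from 2788 higher and 2934 lower to 1390 and 4780 with library size alone, and ran from 2349 to 2768 and from 2583 to 2951 without 1 library. At 20 °C the mutant had 1029 genes higher and 1121 lower, 2737 and 649 with library size alone, 1670 and 1934 with the exchanged replicate block, and 582 to 1350 and 638 to 1200 without 1 library. At 33 °C it had 1561 and 1473, 4868 and 831 with library size alone, 2665 and 2490 with the exchanged block, and 644 to 1901 and 831 to 1996 without 1 library. The causes of these shifts were not tested. Each group had 3 libraries, which limits the precision of every value.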

Other observations

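The 27 genes that met both thresholds but were left out by family included 5 collagen genes, of which col-95 differed by 2.85 at 20 °C and 1.498 at 33 °C, and 3 astacin proteases, of which nas-9 differed by 1.76 at both temperatures. dod-21, of the genes downstream of the DAF-16 transcription factor, differed by 2.13 and 2.77. The fatty acid desaturase genes fat-5 and fat-7 differed by 1.502 and 1.43 at 20 °C. 4 fbxa genes and 4 UDP-glucuronosyltransferase genes were also among them. These values met the same thresholds as the 133 genes and carry no test.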
